A study of Mus musculus with 10 samples.

Results

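The BCL2 family controls the mitochondrial route to apoptosis, and 10 of its genes were followed in CD4+CD25- T cells sorted from mouse mammary tumours of 4 genotypes. The genes were taken by symbol from the deposited table of normalized counts, in which a gene's read count is divided by a size factor of its library. They were the survival genes Bcl2, Bcl2l1 and Mcl1, the effector genes Bax and Bak1, and the BH3-only genes Bcl2l11, Bad, Bid, Pmaip1 and Bbc3. All 10 were found among the 17363 named genes of the table. All 10 also passed the filter on low values, 10 normalized counts or more in 2 or more replicates, which left 14473 genes for testing.

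All mice were C57BL/6, were 23 weeks old, carried the PyMT oncogene, which causes mammary tumours, and had floxed alleles of Tgfbr2, which encodes a chain of the TGF-beta receptor. KO mice also carried ThPOKCre, a Cre recombinase under control of a gene of the CD4 T cell lineage. WT mice had the floxed alleles and no Cre. IL4-/-KO mice carried ThPOKCre and lacked Il4, the gene of the type 2 cytokine interleukin 4, and IL4-/- mice lacked Il4 and had no Cre. Each genotype had 2 replicates. From the RNA of each KO replicate a library was prepared and later repeated, and the mean of both was used, so that 10 libraries gave 8 replicates. Whether replicates were separate mice is not stated in the labels, and p-values therefore reflect only how these samples spread, which may be technical.

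In a living T cell the proteins BCL2, BCL-XL (gene Bcl2l1) and MCL1 hold the pore formers BAX and BAK in check at the mitochondrial membrane. BH3-only proteins such as BIM (Bcl2l11), BAD, BID, NOXA (Pmaip1) and PUMA (Bbc3) report stress or loss of survival signals by binding the survival proteins or the pore formers. Cytokines such as interleukin 7 and interleukin 2 sustain Bcl2 in T cells, and BIM limits the lifespan of T cells after activation and when those cytokines run short.

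Survival cytokines also restrain the FOXO transcription factors, which are known to drive Bcl2l11 and Bbc3. A search of the 250 bases before the start of transcripts in RefSeq (GRCm38.p6) covered 15 windows of 9 members, on both strands, for the letters TGTTTAC (FOXO), TTCNNNGAA (STAT), CACGTG (E-box) and GTCTAGAC (a SMAD palindrome). Neither window shown holds a second of these motifs. TGTTTAC was found in 1 window of Bcl2l11 and 1 window of Bbc3, and in 3.17% of 32851 RefSeq promoter windows of that length. CACGTG, present in 6.02% of all windows, was found in the window of Bax and in another window of Bbc3. The STAT letters (7.02% of all windows) and the SMAD palindrome (0.167%) were not in the members' windows, which says nothing about those factors. Both windows with the FOXO letters are shown because Bcl2l11 and Bbc3 had the smallest unadjusted p among the BH3-only genes. The first is chr2:128125788-128126037 and the other is chr7:16310011-16310260, both on the plus strand, with the FOXO letters or their reverse complement in capitals. The Bbc3 window lies inside the annotated gene, after the start of another RefSeq transcript.
Bcl2l11: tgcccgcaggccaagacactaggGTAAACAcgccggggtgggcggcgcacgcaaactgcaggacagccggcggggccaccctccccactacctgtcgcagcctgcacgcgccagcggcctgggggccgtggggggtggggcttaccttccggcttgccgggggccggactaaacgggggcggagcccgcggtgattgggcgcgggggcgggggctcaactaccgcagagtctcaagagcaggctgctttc
Bbc3: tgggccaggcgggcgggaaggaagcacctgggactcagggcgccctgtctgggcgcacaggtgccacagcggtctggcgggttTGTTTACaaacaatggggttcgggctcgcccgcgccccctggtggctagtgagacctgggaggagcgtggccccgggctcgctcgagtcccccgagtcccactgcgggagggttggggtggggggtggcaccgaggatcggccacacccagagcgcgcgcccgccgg
The match began at base 24 of the Bcl2l11 window and at base 84 of the Bbc3 window, and is a description of the letters, not of a bound site.

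Recovered depth was 17121030 to 18479090 reads in WT and the first KO libraries, and 28003231 to 33802781 in the KO repeats, IL4-/-KO and IL4-/-. Tgfbr2 was listed at 5803 to 9442 normalized counts in KO libraries, against 7876 and 7894 in WT, and at 7762 and 8205 in IL4-/-KO, against 13816 and 12544 in IL4-/-. Il4 was listed at 98.7 and 39.7 in IL4-/-KO, against 236 to 523 in KO libraries, and at 97.2 and 75.4 in IL4-/-, against 107 and 276 in WT. These totals also hold reads from outside the deleted parts of both genes, so they check the genotypes only in part. Cd3e was at 13302 normalized counts or more and Cd4 at 12165 or more in every replicate, and Cd8a was at 783 or less. Il2ra, which encodes CD25, was at 1636 to 4201 in KO, 400 to 1089 in WT, 2430 to 4053 in IL4-/-KO and 1717 to 1896 in IL4-/-, although the sort took CD25- cells, so WT was the low genotype.

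The 11 core T cell markers in the table summed to 215631 to 249300 normalized counts in KO libraries, 119669 and 181979 in WT, 180192 and 185364 in IL4-/-KO, and 183477 and 105505 in IL4-/-. RNA of other cells was also present. The mammary and tumour epithelium list summed to 75207 to 143094 in KO libraries, 185543 and 27466 in WT, 14637 and 44141 in IL4-/-KO, and 38591 and 86656 in IL4-/-. The macrophage and monocyte list was at 9818 to 21192 in 9 libraries and at 114672 in IL4-/- replicate 2, where the neutrophil list was also highest, at 15464. The 12 genes of the dissociation response list, chosen as a check of handling, summed to 408960 to 761530 in KO libraries and to 559194 and 472004 in WT. They summed to 380048 and 282711 in IL4-/-KO, and to 285146 and 443739 in IL4-/-. Whether handling moved them was not tested. Of 9 mitochondrially encoded genes listed to check RNA quality, 0 were in the table. Every BCL2 family gene is expressed in many cell types, so its level here is that of a mixture. In such bulk RNA, fewer cells of a type and less RNA per cell cannot be told apart.

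Corrected for transcript length, Mcl1 and Bax were the most abundant members and Bak1 the least. Per kilobase of the longest annotated transcript, the mean over 8 replicates was 5238 normalized counts for Mcl1, 5008 for Bax, 1710 for Bcl2l1, 1166 for Bcl2 and 1142 for Pmaip1. Below these came Bbc3 at 655, Bcl2l11 at 504, Bad at 398, Bid at 392 and Bak1 at 22.5 normalized counts per kilobase. The order has unclear neighbours. The replicates of Mcl1 ran from 3013 to 6704 normalized counts per kilobase and those of Bax from 3155 to 7663, so both ranges covered each other nearly in full, and the same held for Bad (256 to 537) and Bid (277 to 489). Bcl2 (469 to 2447) and Pmaip1 (246 to 2214) covered each other for the most part, and Bcl2l1 (1219 to 2797) overlapped both. The range of Bcl2l11 (267 to 846) overlapped those of Bbc3 (384 to 1417), Bad and Bid. Pmaip1 spanned 8.99-fold and Bcl2 5.22-fold between their lowest and highest replicate, while Bid spanned 1.76-fold.

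**Figure D1:**
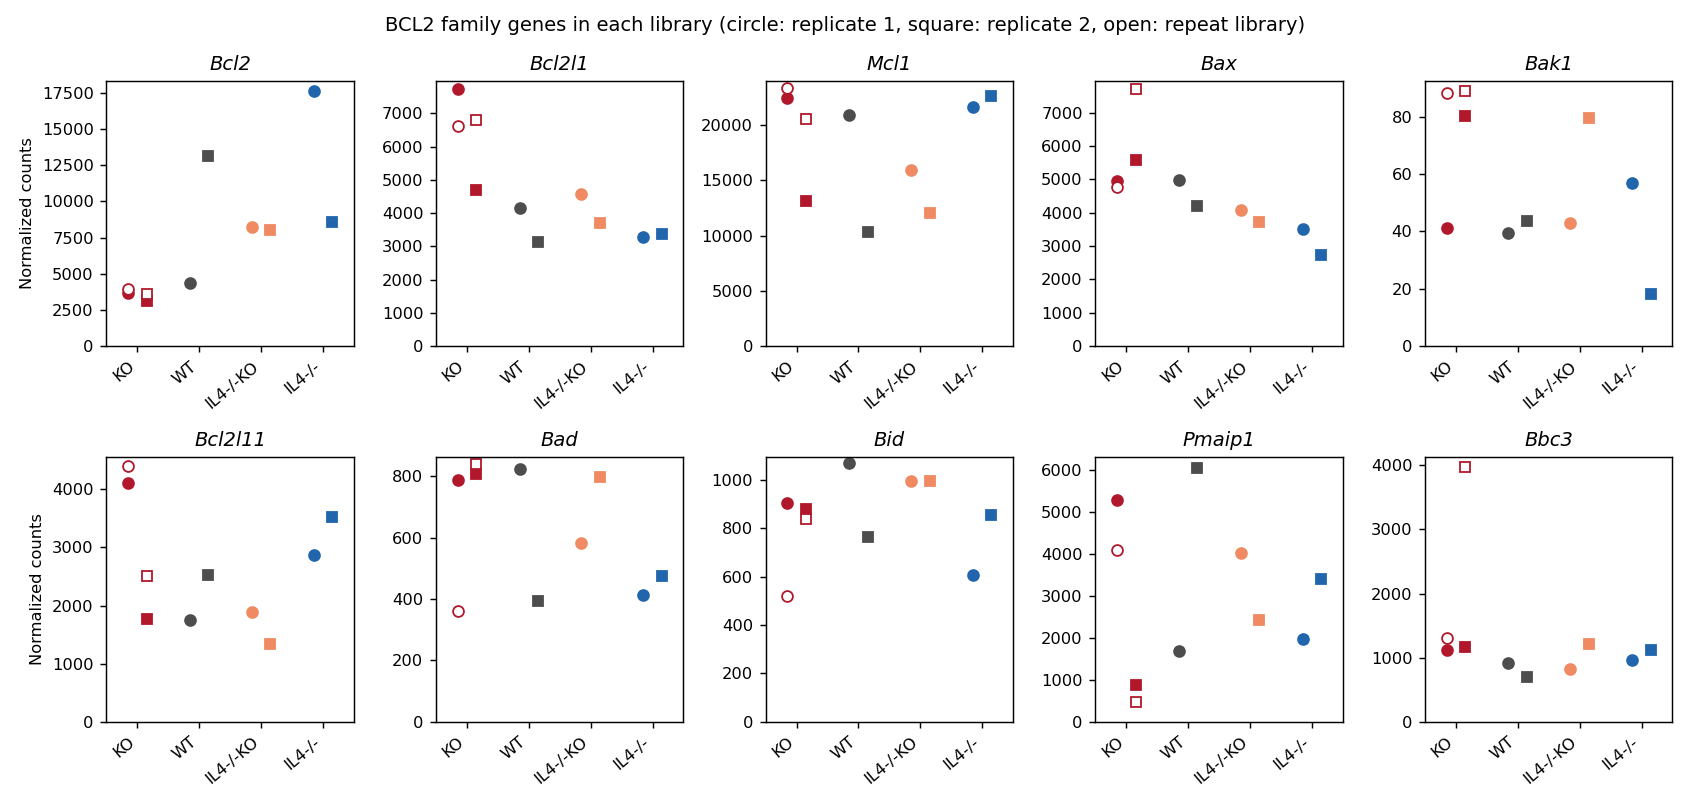
Normalized counts (vertical axis, starting at 0) of the 10 BCL2 family genes in each library of KO, WT, IL4-/-KO and IL4-/- tumour CD4+CD25- T cells. Circles are replicate 1, squares replicate 2 and open symbols the repeat libraries of KO. Bcl2 lies at 3144 to 3972 in all KO libraries, below every other library shown, and Pmaip1 separates the KO replicates more than the genotypes.

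Deletion of Tgfbr2 in mice with Il4 asks how CD4 T cells in the tumour change when this chain of the TGF-beta receptor is targeted. Loss of the response to TGF-beta was not measured here. In this comparison of KO with WT, Bcl2 was lower in both KO replicates than in both WT replicates, and Bcl2l1, Bbc3 and Bak1 were higher without overlap. None of the 10 members passed the adjusted threshold in limma, the linear model test run over all 14473 genes, nor in edgeR or DESeq2. That threshold was passed by 0.00691% of all genes in limma, which is 1 gene, by 0% in edgeR and by 4.03% of the 13070 genes to which DESeq2 gave an adjusted p. At an unadjusted p under 0.05 in limma there were 2 of 10 members, Bcl2l1 and Bbc3, both higher in KO, beside 12.1% of all genes in either direction. Replicates did not overlap for 3 members that were higher and 1 that was lower, against 17.5% and 20.1% of all genes. The median log2 fold change of the 10 members was 0.37, and that of all genes was -0.07.

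Deletion of Tgfbr2 was also compared without Il4, as IL4-/-KO with IL4-/-. Bcl2, Mcl1 and Bcl2l11 were lower in both IL4-/-KO replicates, and Bcl2l1, Bax, Bad and Bid were higher in both. Bcl2 and Bcl2l1 thus lay on the same side as in KO against WT. Of all genes, 16.8% were higher without overlap and 16.2% lower, beside these 4 and 3 members. Again no member passed the adjusted threshold in limma, edgeR or DESeq2, and no gene of the table did in limma or edgeR (0%), while 0.359% did in DESeq2. Bcl2l11 alone had an unadjusted p under 0.05, in a comparison where 3.25% of all genes did. The members' median log2 fold change was 0.29, and that of all genes was -0.03.

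Loss of Il4 was compared within Tgfbr2-deleted cells, IL4-/-KO with KO, and within cells with the receptor, IL4-/- with WT. The comparisons share KO or WT replicates with those above, so their values are not separate evidence. In IL4-/-KO, Bcl2 and Bid were higher than in KO without overlap and Bcl2l1, Mcl1, Bax and Bcl2l11 were lower, beside 22.8% of all genes higher and 23.3% lower. In IL4-/-, Mcl1, Bcl2l11 and Bbc3 were higher than in WT without overlap and Bax was lower, beside 14.7% and 14.6% of all genes. No member passed the adjusted threshold in either comparison with limma, edgeR or DESeq2, nor did any other gene with limma or edgeR (0% in both). DESeq2 called 2.77% of all genes in IL4-/-KO against KO and 0.2% in IL4-/- against WT. In limma 0 of 10 members had an unadjusted p under 0.05 in either, where 11.7% and 4.08% of all genes did. The members' median log2 fold change was -0.42 for IL4-/-KO against KO and -0.21 for IL4-/- against WT, beside -0.07 and 0.01 over all genes. The dissociation response list moved with these comparisons. Of its 12 genes, 9 were negative in IL4-/-KO against KO, 5 at an unadjusted p under 0.05, with a median of -1.37, and 10 were negative in IL4-/- against WT, 1 at that p, with a median of -0.96. Its part in the members' values was not tested.

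**Figure D2:**
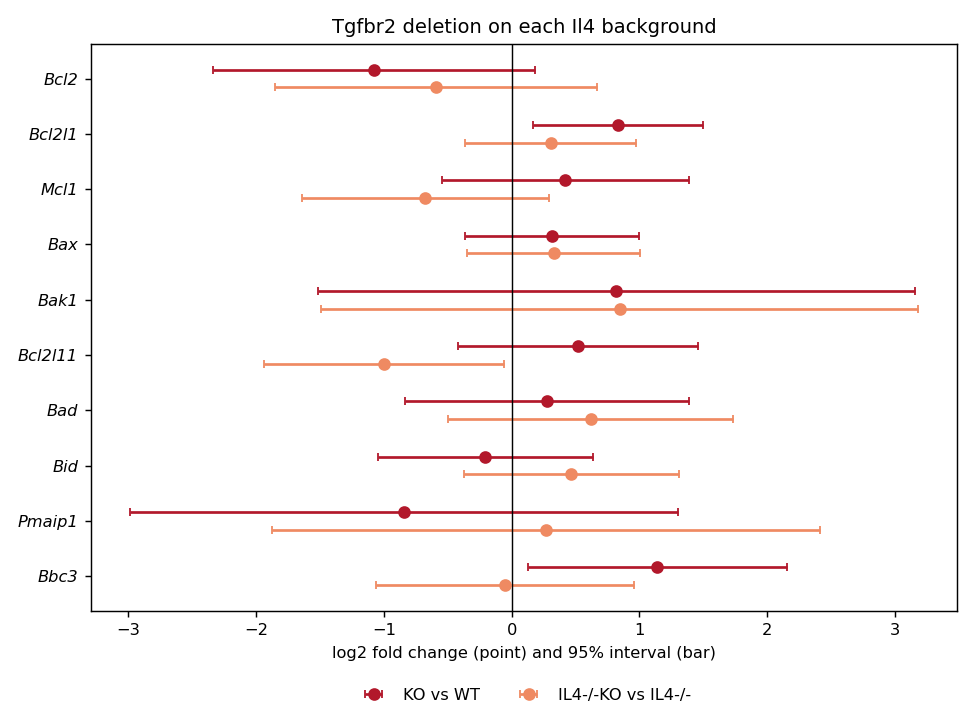
log2 fold change (point) and 95% interval (bar) of each BCL2 family gene for Tgfbr2 deletion, as KO against WT and as IL4-/-KO against IL4-/-, from limma. The interval lies above 0 for Bcl2l1 and Bbc3 in KO against WT and below 0 for Bcl2l11 in IL4-/-KO against IL4-/-, before adjustment for the number of genes.

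Bcl2, the founding survival gene of the family, lies on mouse chromosome 1 at 106538178 to 106714274 (mm10, minus strand), and its exons overlap D630008O14Rik on the opposite strand. It was at 3810 and 3370 normalized counts in KO, 4363 and 13106 in WT, 8250 and 8020 in IL4-/-KO, and 17598 and 8567 in IL4-/-. The KO replicates were the lowest of all 8, while WT replicate 1 was close above them, and the WT replicates differed 3.004-fold. The log2 fold change was -1.08 (SE 0.54) for KO against WT, with a limma p of 0.084 and an adjusted p of 0.470. It was -0.59 (SE 0.54) for IL4-/-KO against IL4-/-, and the mean effect of the deletion over both backgrounds was -0.84 (SE 0.38, limma p 0.063, adjusted p 0.526). In the other direction of the design, Bcl2 was higher without Il4 by 1.18 (SE 0.54) in IL4-/-KO against KO and by 0.70 (SE 0.54) in IL4-/- against WT. The mean effect of Il4 loss was 0.94 (SE 0.38, limma p 0.041, adjusted p 0.423), in a contrast where 11.5% of all genes had an unadjusted p under 0.05.

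The size of the Bcl2 difference from WT rested on WT replicate 2. Without it the log2 fold change of KO against WT was -0.28, and without WT replicate 1 it was -1.87. The value for IL4-/-KO against IL4-/- rested likewise on IL4-/- replicate 1. Leaving out 1 IL4-/- replicate gave -0.075 without replicate 1 and -1.11 without replicate 2. Inside every genotype the replicate with the larger epithelial marker sum had less Bcl2. The Bcl2 difference was 1.13-fold in KO, 3.004-fold in WT, 1.03-fold in IL4-/-KO and 2.05-fold in IL4-/-. IL4-/- replicate 2 also had the highest macrophage and monocyte sum (114672) and the lowest core T cell sum (105505). WT replicate 1 had the highest epithelial sum (185543) and WT replicate 2 one of the lowest (27466). With the mean of that list as a covariate, Bcl2 differed by -0.98 (SE 0.32) in KO against WT and by -1.01 (SE 0.34) in IL4-/-KO against IL4-/-. The mean effect was then -0.99 (SE 0.23, limma adjusted p 0.088), the lowest adjusted p of any member under any setting tried. This is the same direction in both backgrounds, still short of the threshold. With the covariate, 70 genes passed the adjusted threshold in limma for the mean effect of the deletion, against 3 without it. An unadjusted p under 0.05 was then found for 18.8% of all genes, against 9.87% without the covariate. The part of epithelial RNA in the Bcl2 values was not tested beyond this covariate.

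Bcl2 was also scaled to the 11 core T cell markers, a choice made after the data had been seen, which shifted the median of all genes to -0.73 in KO against WT and -0.41 in IL4-/-KO against IL4-/-. On that scale the log2 values of Bcl2 were 11.36 and 11.37 in KO, 12.57 and 13.64 in WT, 12.90 and 12.92 in IL4-/-KO, and 14.00 and 13.77 in IL4-/-. The 4 genotypes then differed with overlap only between WT and IL4-/-KO. The log2 fold change was -1.74 (SE 0.41, limma adjusted p 0.098) for KO against WT and -0.98 (SE 0.41, adjusted p 0.982) for IL4-/-KO against IL4-/-. Measured from the shifted median of all genes, Bcl2 was lower by less than these values.

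**Figure D3:**
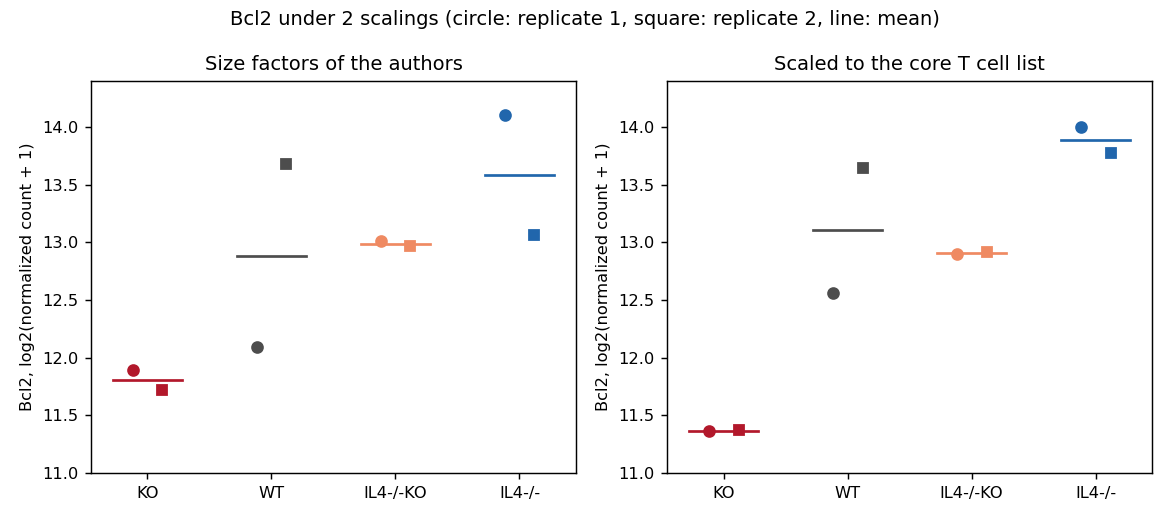
Bcl2 as log2(normalized count + 1) in the 8 replicates with the authors' size factors (left) and scaled to 11 core T cell markers (right). Points are replicates and lines are genotype means. The KO replicates are lowest on both scales, and the spread inside WT and inside IL4-/- is smaller on the right.

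Transcript length also moved with these comparisons. Over 14216 genes, Spearman's rho between the log2 fold change and transcript length was -0.22 for KO against WT and 0.29 for IL4-/-KO against KO, as a description across genes, which are not independent. The longest Bcl2 transcript has 7191 bases, more than that of any other member, and the longest Bax transcript has 867, the fewest. With a trend on length removed, the mean effect of Il4 loss was 0.33 (SE 0.35) for Bcl2 and -0.29 (SE 0.21) for Bax, and 0 members had an unadjusted p under 0.05 for it, against 2 without that step. On the same values, Bcl2 differed by -0.67 in KO against WT, by -0.36 in IL4-/-KO against IL4-/- and by 0.49 in IL4-/-KO against KO. The part of transcript length in the Bcl2 and Bax values was not tested beyond this.

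Bcl2l1 encodes BCL-XL, a survival protein that rises in activated T cells, and lies on chromosome 2 at 152780668 to 152831728 (minus strand). It was at 7184 and 5745 normalized counts in KO, 4160 and 3132 in WT, 4570 and 3690 in IL4-/-KO, and 3281 and 3364 in IL4-/-. Both KO replicates stood above all 6 others. The log2 fold change was 0.83 (SE 0.29, 95% interval 0.16 to 1.5) for KO against WT, with a limma p of 0.021 and an adjusted p of 0.367. For IL4-/-KO against IL4-/- it was 0.31 (SE 0.29), and the mean effect of the deletion was 0.57 (SE 0.20, limma p 0.024, adjusted p 0.461), where 9.87% of all genes had an unadjusted p under 0.05 and 0.0207% passed the adjusted threshold. Bcl2l1 was lower by 0.65 on the log2 scale in IL4-/-KO than in KO (log2 fold change -0.65, SE 0.29), and IL4-/- against WT gave -0.12 (SE 0.29). The core T cell marker sum was also highest in KO libraries. Scaled to those markers, KO against WT gave 0.17 and IL4-/-KO against IL4-/- -0.08.

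Mcl1, on chromosome 3 at 95658788 to 95663176 (plus strand), encodes a short-lived survival protein. It had 22915 and 16820 normalized counts in KO, 20892 and 10299 in WT, 15935 and 12070 in IL4-/-KO, and 21659 and 22644 in IL4-/-. KO and WT overlapped, and IL4-/-KO lay below IL4-/- and below KO. The log2 fold change was 0.42 (SE 0.42) for KO against WT, turning to -0.09 without WT replicate 2, and -0.68 (SE 0.42) for IL4-/-KO against IL4-/-.

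Of the effector genes, Bax was abundant and Bak1 scarce. Bax, on chromosome 7 at 45461697 to 45466898 (minus strand), shares exon sequence with Gm45808 on the same strand, so its reads are uncertain. It was at 4853 and 6644 normalized counts in KO, 4979 and 4202 in WT, 4081 and 3718 in IL4-/-KO, and 3523 and 2736 in IL4-/-. All 4 replicates without Il4 were below all 4 with it, and the share of all genes separated this way was not counted. Bax differed by -0.54 (SE 0.29) in IL4-/-KO against KO and by -0.56 (SE 0.29) in IL4-/- against WT. Its mean effect of Il4 loss was -0.55 (SE 0.21, limma p 0.030, adjusted p 0.397), and -0.29 with the length trend removed. In that contrast 11.5% of all genes had an unadjusted p under 0.05. The mean effect of Il4 loss was also negative for 10 of the 12 dissociation response genes, 7 of them at an unadjusted p under 0.05, with a median of -1.17. For Tgfbr2 deletion the values were 0.31 (SE 0.29) in KO against WT and 0.33 (SE 0.29) in IL4-/-KO against IL4-/-. Both turned negative when scaled to the core T cell markers, at -0.35 and -0.06.

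Bak1, on chromosome 17 at 27019810 to 27029009 (minus strand), overlaps exons of Ggnbp1 on the opposite strand. It was at 64.7 and 84.5 normalized counts in KO, 39.5 and 43.6 in WT, 43.1 and 79.4 in IL4-/-KO, and 56.7 and 18.0 in IL4-/-. The depth allowed up to 1.93 to 4.41 normalized counts for a value of 0, so all of these were above the floor of 3 reads. The log2 fold changes were 0.82 (SE 1.01) for KO against WT and 0.85 (SE 1.01) for IL4-/-KO against IL4-/-, with the widest intervals of the family.

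Among the BH3-only genes, Bcl2l11 gave the smallest p on the Il4-deficient background. It encodes BIM and lies on chromosome 2 at 128126038 to 128162547 (plus strand), directly after the first window printed above. Bcl2l11 was at 4263 and 2139 normalized counts in KO, 1757 and 2528 in WT, 1890 and 1345 in IL4-/-KO, and 2876 and 3523 in IL4-/-. IL4-/-KO lay below IL4-/- and below KO, while the KO values lay on both sides of WT replicate 2. The log2 fold change was -0.997 (SE 0.41, limma p 0.040, adjusted p 1) for IL4-/-KO against IL4-/- and 0.52 (SE 0.41) for KO against WT.

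The deletion gave opposite signs for Bcl2l11 on the 2 Il4 backgrounds, although both were negative when scaled to the core T cell markers, at -0.14 for KO against WT and -1.38 for IL4-/-KO against IL4-/-. This difference was tested as the interaction. It was -1.52 (SE 0.57, limma p 0.030, adjusted p 0.988), and 3.52% of all genes had an unadjusted p under 0.05 for the interaction. Leaving out KO replicate 1 moved it to -1.02, and leaving out KO replicate 2 to -2.01. The interaction was -1.19 (SE 0.62, limma p 0.091, adjusted p 0.988) for Bbc3 and -1.10 (SE 0.59, limma p 0.102, adjusted p 0.988) for Mcl1. Bcl2l11 was the only member with an unadjusted p under 0.05 here. The KO replicates of Bcl2l11 differed 2.32-fold in their first libraries and 1.76-fold in their repeats.

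Bbc3 encodes PUMA, a p53 target, and lies on chromosome 7 at 16308393 to 16318205 (plus strand). It was at 1211 and 2571 normalized counts in KO, 919 and 697 in WT, 820 and 1215 in IL4-/-KO, and 963 and 1113 in IL4-/-. KO replicate 2 stood above the other 7 replicates. The log2 fold change was 1.14 (SE 0.44, limma p 0.032, adjusted p 0.387) for KO against WT and -0.05 (SE 0.44) for IL4-/-KO against IL4-/-. A single library carried much of this difference. KO replicate 2 had 3971 normalized counts in its repeat library and 1171 in its first, and without that repeat library KO against WT gave 0.57 (SE 0.32, limma p 0.114, adjusted p 0.572).

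Pmaip1, on chromosome 18 at 66458533 to 66465565 (plus strand), encodes NOXA, which binds MCL1. It was at 4692 and 672 normalized counts in KO, 1682 and 6037 in WT, 4033 and 2422 in IL4-/-KO, and 1982 and 3402 in IL4-/-. The KO and WT replicates each spanned most of the range of the whole set. KO against WT gave -0.84 (SE 0.93) and IL4-/-KO against IL4-/- 0.27 (SE 0.93), and leaving out KO replicate 2 turned the first to 0.56.

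Bad, on chromosome 19 at 6941861 to 6951899 (plus strand), encodes a BH3-only protein that growth factor kinases inactivate, and its exons overlap Gpr137 on the opposite strand. It was at 574 and 823 normalized counts in KO, 823 and 392 in WT, 581 and 798 in IL4-/-KO, and 414 and 475 in IL4-/-. KO and WT overlapped, and IL4-/-KO lay above IL4-/-. Bid, on chromosome 6 at 120891930 to 120916853 (minus strand), links death receptors to mitochondria. It was at 715 and 861 normalized counts in KO, 1070 and 764 in WT, 998 and 998 in IL4-/-KO, and 607 and 857 in IL4-/-. For KO against WT the log2 fold change was 0.27 (SE 0.48) for Bad and -0.21 (SE 0.36) for Bid. For IL4-/-KO against IL4-/- it was 0.62 (SE 0.48) for Bad and 0.47 (SE 0.36) for Bid.

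Sequencing depth was compared within sets of like depth, since WT and the first KO libraries were shallower than the rest. Against WT, the first KO libraries alone gave a log2 fold change of -1.16 (SE 0.54, limma adjusted p 0.519) for Bcl2, 0.74 (SE 0.32, adjusted p 0.505) for Bcl2l1 and 0.51 (SE 0.32, adjusted p 0.631) for Bbc3. For IL4-/-KO against the KO repeat libraries alone, Bcl2 gave 1.11 (SE 0.56, adjusted p 0.414), Bcl2l1 -0.71 (SE 0.30, adjusted p 0.355) and Bcl2l11 -1.06 (SE 0.40, adjusted p 0.326). IL4-/- and WT lie in different sets, and a depth term for them rests on the KO pairs alone. With that term, IL4-/- against WT gave 0.54 for Bcl2, 0.24 for Mcl1, -0.77 for Bax and 0.30 for Bcl2l11, and it turned Bbc3 to -0.62, which was 0.37 without the term.

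**Figure D4:**
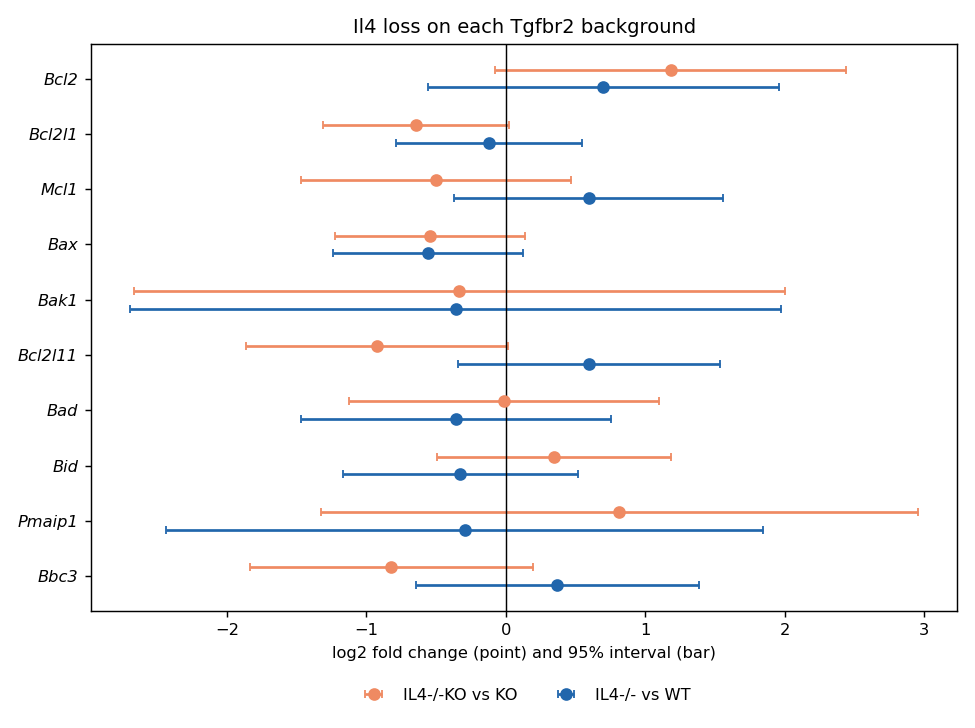
log2 fold change (point) and 95% interval (bar) of each BCL2 family gene for Il4 loss, as IL4-/-KO against KO and as IL4-/- against WT, from limma. Mcl1, Bcl2l11, Bbc3, Pmaip1 and Bid have points on opposite sides of 0 in the 2 comparisons, while Bcl2 is above 0 in both and Bcl2l1, Bax, Bak1 and Bad are below 0 in both, Bad barely so in IL4-/-KO against KO (-0.014).

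The balance of a survival gene against the BH3-only gene it restrains was followed as the log2 ratio of Bcl2 to Bcl2l11 within each replicate. The ratio was -0.16 and 0.66 in KO, 1.31 and 2.37 in WT, 2.13 and 2.58 in IL4-/-KO, and 2.61 and 1.28 in IL4-/-. Both KO replicates were below the other 6. KO minus WT was -1.60 and IL4-/-KO minus IL4-/- was 0.40. Between these, the mean effect of Tgfbr2 deletion was -0.60. The two-sided exact permutation test over 36 arrangements within the Il4 backgrounds gave p = 0.389, but its smallest possible p is 0.0556, so it could not pass the threshold of 0.05 and the ratios are a description. Leaving out a replicate gave values from -0.93 to -0.26. IL4-/-KO minus KO was 2.10 and IL4-/- minus WT was 0.10. No test of these was run.

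How far a single library could be trusted was read from the KO pairs made from one RNA. The sign of the difference between KO replicates was the same in first and repeat libraries for 8 of 10 members. Only for Pmaip1 and Bcl2l11 were both differences between libraries of one RNA smaller than both differences between replicates. For Pmaip1 the libraries from KO replicate 1 gave 5290 and 4095 normalized counts and those from replicate 2 gave 885 and 459, which is 5.97-fold in the first libraries and 8.91-fold in the repeats. For Bad, the first library of KO replicate 1 gave 788 normalized counts and the repeat gave 361. Bak1 gave 41.2 and 88.3 in that pair, and Bcl2 gave 3648 and 3972.

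**Figure D5:**
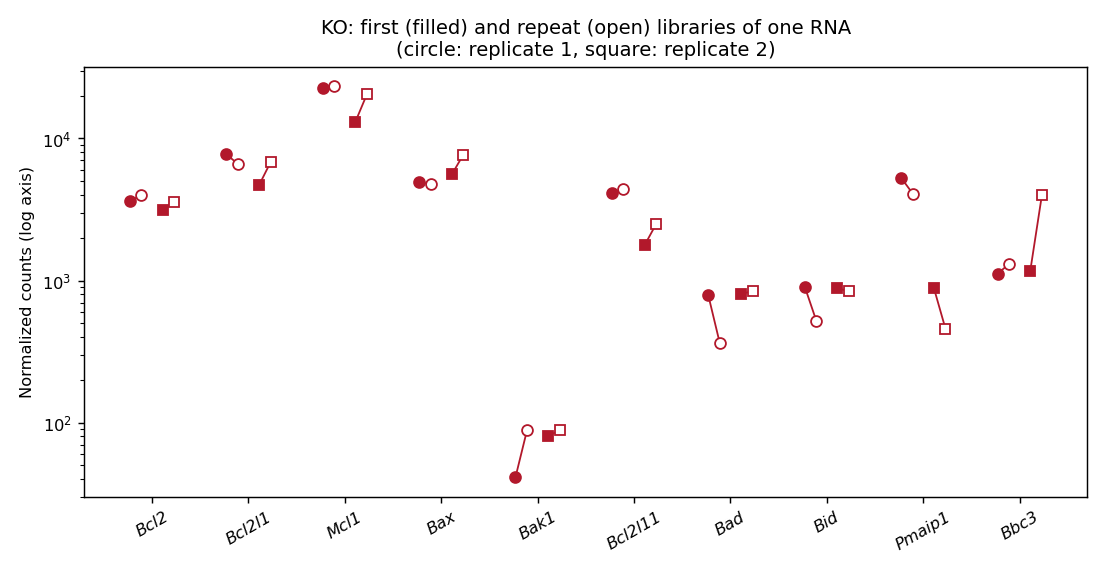
Normalized counts (log axis) of each BCL2 family gene in the first (filled) and repeat (open) library of each KO replicate, joined by lines (circle replicate 1, square replicate 2). Pmaip1 and Bcl2l11 separate the replicates in both libraries, and Bbc3 of replicate 2 lies at 1171 in the first and at 3971 in the repeat.

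Genes around the family were taken from 6 lists: other BCL2 relatives, mitochondrial apoptosis downstream of the pore, the death receptor arm, survival cytokine input, factors that act on the family, and p53 targets. Together they held 103 tested genes that are not members. In limma and in edgeR, 0 of these passed the adjusted threshold in KO against WT, IL4-/-KO against IL4-/-, IL4-/-KO against KO or IL4-/- against WT, while 15, 1, 16 and 9 had an unadjusted p under 0.05 in limma, beside 12.1%, 3.25%, 11.7% and 4.08% of all genes. DESeq2 called 8 of the 103 in KO against WT, beside 4.03% of all genes, which were Il2rb, Jak3, Stat5a, Pik3cd and Pim1 as higher in KO and Bclaf1, Usp9x and Trp53inp1 as lower. Its calls in IL4-/-KO against KO included Usp9x and Trp53inp1 as higher in IL4-/-KO and Cdkn1a as lower, and it called 0 in the remaining comparisons. For KO against WT, 13 of 17 survival cytokine genes had a positive log2 fold change, 7 of them at an unadjusted p under 0.05, with a median of 0.50 beside -0.07 over all genes, of which 12.1% had such a p in either direction. The core T cell markers lay the same way, with 10 of 11 positive, 4 at an unadjusted p under 0.05, and a median of 0.83, and their part in these values was not tested. Among them Stat5a, a transducer of interleukin 2 and 7 signals, was at 2861 and 2894 normalized counts in KO, against 1085 and 1246 in WT (log2 fold change 1.31, SE 0.28, limma adjusted p 0.303). Pim1, a STAT5 target kinase that acts on BAD, was at 4906 and 3718 in KO, against 856 and 1801 in WT (log2 fold change 1.78, SE 0.43, limma adjusted p 0.339). For IL4-/-KO against IL4-/-, 10 of the 17 were positive, 0 at an unadjusted p under 0.05, with a median of 0.06.

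Other BCL2 relatives had 7 of 15 positive values in KO against WT, and 2 negative ones at an unadjusted p under 0.05. Bcl2l15 was at 7.27 and 2.63 normalized counts in KO, against 86.9 and 63.4 in WT, and Bnip3l, a mitophagy receptor, gave -0.84. The A1 survival genes Bcl2a1b (5694 and 2069 in KO, 2978 and 2134 in WT) and Bcl2a1d (3369 and 1067 in KO, 1224 and 1034 in WT) are near-identical copies, so the split of reads between them is uncertain. Of 21 factors that act on the family, 9 were positive and 12 negative in KO against WT. Bclaf1, a BCL2-associated factor, gave -2.04, at 1217 and 450 normalized counts in KO, against 1619 and 5722 in WT. Usp9x, a deubiquitinase that stabilises MCL1, gave -1.45, at 652 and 548 normalized counts in KO, against 1225 and 2172 in WT. The part of transcript length in the Bclaf1 and Usp9x values was not tested. Foxo1 was at 3633 and 6397 in KO and 5002 and 6494 in WT, and Foxo3 at 187 and 589 in KO and 557 and 331 in WT, so that the KO and WT replicates overlapped for both FOXO genes.

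Of the p53 target list, 7 of 16 were positive and 9 negative in KO against WT. The named genes Trp53inp1 (-1.63) and Sesn1 (-1.26) were negative while Bbc3 was positive. Cdkn1a, also on that list, was at 11222 and 6932 normalized counts in KO, against 4443 and 5471 in WT. Trp53, which encodes p53, was at 3841 and 5979 in KO, against 3391 and 2106 in WT. Both were higher in KO without overlap, as were 17.5% of all genes. In the death receptor arm 8 of 14 genes were positive in KO against WT, and Tnfrsf1a, a TNF receptor, was the one at an unadjusted p under 0.05, with 0.998. In IL4-/-KO against IL4-/-, 12 of these 14 were positive, 0 at an unadjusted p under 0.05, with a median of 0.099 beside -0.03 over all genes. All 11 core T cell markers were also positive in that comparison, with a median of 0.39, and their part was not tested. Of 21 genes downstream of the pore, 11 were positive and 0 had an unadjusted p under 0.05 in KO against WT. In IL4-/-KO against IL4-/-, 1 gene of the 6 lists was named by the rule, Birc5, an inhibitor of apoptosis family member of dividing cells, with 1.04 (SE 0.37, limma adjusted p 1).

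For Il4 loss in Tgfbr2-deleted cells, IL4-/-KO against KO, the named genes of the factor list were Usp9x (1.95) and Bclaf1 (2.23), and the cytokine list gave Akt2 (-0.83), a kinase of survival signalling. Cdkn1a, the p53 target that encodes p21, was at 2178 and 2615 normalized counts in IL4-/-KO, against 11222 and 6932 in KO (log2 fold change -1.89). In the same comparison the dissociation response genes had a median of -1.37, and all 7 tested neutrophil genes were negative, with a median of -4.02. The part of either list in these values was not tested. Trp53inp1 (1.94), Birc6 (1.34), which encodes a large inhibitor of apoptosis, and Tnfsf10 (1.40), which encodes TRAIL, were higher in IL4-/-KO. For IL4-/- against WT the named genes were Stat5a (1.19), Pik3cd (0.996), Birc6 (1.57), Cycs (-0.95), which encodes cytochrome c, Huwe1 (1.24), a ubiquitin ligase of MCL1, Usp9x (0.94), Cdkn1a (-1.01) and Cflar (0.97). None of these passed the adjusted threshold in limma, and the part of transcript length in them was not tested.

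Across the 8 replicates the gene most like each member was named among 10847 or 10848 genes with a mean of at least 100 normalized counts, so high values were available by number alone. Pearson's r was 0.99 for Bcl2l1 with Apmap, for Mcl1 with Nicn1, for Bax with Pcbd2 and for Bbc3 with Acbd6. It was 0.98 for Bcl2 with Acin1, 0.97 for Pmaip1 with Zfp263 and for Bad with Tex264, 0.96 for Bak1 with Chaf1a, 0.94 for Bcl2l11 with Spon1 and 0.91 for Bid with Bloc1s5. Among the members, r ran from -0.83 for Bcl2 with Bcl2l1 to 0.71 for Bad with Bid. These are descriptions over libraries that share size factors and marker content.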

How the data were processed

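RNA of sorted CD4+CD25- T cells was amplified with SMART-Seq v4 and made into libraries with the KAPA Hyper Prep kit, per the labels' protocols. No molecular identifiers are mentioned, so the read floors cover counting error only. The intervals come from limma and reflect the spread between replicates. The deposited signal per gene is a read count divided by a size factor, with bcl2fastq 2.18.0, STAR, DESeq2 and mm10 named in the submitters' processing notes. Not given in the sources used here are the read counter, its annotation and its use of strand. Values were whole multiples of the value of 1 read in 100% of cases (tolerance 0.001 reads), which recovered 17121030 to 33802781 reads per library. Of 17370 rows, 7 named no gene and were left out (0.0029% to 0.0205% of reads).

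limma 3.58.1 (R 4.3.3, with a mean-variance trend) was fitted to log2(normalized count + 1) of all 8 replicates, two-sided, with Benjamini-Hochberg adjustment over 14473 genes per comparison and a threshold of 0.05. The scale understates changes of low genes. Alternatives included edgeR 4.0.16 and DESeq2 1.42.0 on recovered reads. The fit was also run on simulated data, and how many changes it recovered is not reported here. A count of 0 members called is therefore not a finding of no change. Genes of the lists were named where their unadjusted p was under 0.05, at most 2 per list and comparison. One gene that this rule named is not reported here. Positions and lengths came from GENCODE vM21. The members, lists and tests were chosen with earlier results of these data known.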

Additional observations from a re-analysis of the deposited data

Results flagged for a closer look

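Mcl1 and Bcl2l11 were flagged because Il4 loss went with opposite, non-overlapping shifts on the 2 Tgfbr2 backgrounds. Of all genes, 22.8% were higher and 23.3% lower without overlap in IL4-/-KO against KO, and 14.7% and 14.6% in IL4-/- against WT. The share of all genes with opposite shifts was not counted. For Mcl1 the log2 fold change was -0.50 in IL4-/-KO against KO and 0.59 in IL4-/- against WT. The value against WT was 0.084 without WT replicate 2 and 1.10 without WT replicate 1. For Bcl2l11 it was -0.92 in IL4-/-KO against KO and 0.59 in IL4-/- against WT. The difference itself was tested as the interaction in limma, with an adjusted p of 0.988 for both genes, so it did not pass the threshold for either.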

How the results depend on the processing

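No member passed the adjusted threshold under any of the 27 alternative settings, with limma, edgeR or DESeq2, so the count stayed at 0 in every comparison. Over all genes, 1 passed in KO against WT with limma, 0 with edgeR and 527 with DESeq2. Of the 70 member values, 38 changed sign in at least 1 setting, and the lowest unadjusted limma p among those was 0.164.

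The values given above that changed sign were these, and the cause was not tested. For KO against WT, Bad gave -0.045 with the repeat KO libraries only and Bax -0.0051 with the length trend removed, and with scaling to the core T cell list Mcl1 gave -0.24, Bax -0.35, Bcl2l11 -0.14 and Bad -0.39. Leaving out 1 replicate at a time gave -0.090 to 0.93 for Mcl1, -0.26 to 0.81 for Bad and -0.45 to 0.037 for Bid, with both ends set by the WT replicates. For Pmaip1 it gave -2.24 to 0.56, set by the KO replicates, and 0.078 without WT replicate 2. For IL4-/-KO against IL4-/-, the epithelium covariate gave -0.25 for Pmaip1 and 0.15 for Bbc3, and the core T cell scaling gave -0.077 for Bcl2l1, -0.055 for Bax and -0.12 for Pmaip1. Leaving out 1 replicate gave -0.12 to 0.66 for Pmaip1 (-0.10 without IL4-/-KO replicate 1) and -0.34 to 0.23 for Bbc3 (0.052 without IL4-/- replicate 2). For IL4-/- against WT, a term for the depth set gave -0.62 for Bbc3, and leaving out 1 WT replicate gave -0.094 or 1.49 for Bcl2 and -0.32 or 0.085 for Bcl2l1. Some values shown only in the plot of Il4 loss or its caption also changed sign. In IL4-/-KO against KO, the settings ran from -0.27 to 0.34 for Bad, -0.77 to 0.10 for Bak1 and -0.59 to 2.22 for Pmaip1. In IL4-/- against WT, they ran from -0.89 to 0.18 for Bad and -1.16 to 0.44 for Bak1. There they also ran from -0.57 to 0.11 for Bid and -1.22 to 0.63 for Pmaip1.

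Deviations of same-numbered replicates correlated at 0.19 to 0.24 among KO, IL4-/-KO and IL4-/-, and at -0.36 to -0.20 between WT and each of these, so the numbers were not taken as pairs. A replicate block left 0 members called and gave an exact permutation p of 0.375 for the Bcl2 to Bcl2l11 ratio, a test that could not pass the threshold. With the WT numbers crossed, a pairing added after seeing the data, 0 members were called, with 3 genes in KO against WT (1 without a block), 36 in IL4-/-KO against KO (0), 15 for the mean effect of Tgfbr2 deletion (3) and 150 for that of Il4 loss (0), and 3 members had an unadjusted p under 0.05 in IL4-/-KO against KO (0). The fit of only the genotypes compared could not be run for the interaction or the mean effects. With 2 replicates per genotype and deeper sequencing in the KO repeats, IL4-/-KO and IL4-/- than in WT, depth and genotype are separated in IL4-/- against WT only through the KO library pairs.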
